A study of Homo sapiens with 15 samples.

Results

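The control states compared here are A375 cells given a control vector and A375 cells kept in 10% fetal bovine serum (FBS), both harvested after 48 hours. A375 is an established human melanoma cell line with an activating BRAF mutation. The libraries were chosen by their treatment labels, 3 of control vector cells and 3 of 10% FBS cells, together 6 of the 15 libraries of the series. The other 9 libraries, of cells overexpressing MKL1 or a constitutively active form of it (caMKL1) and of cells starved in 0.1% FBS, serve only for scale. The series was made to study how serum starvation and MKL1 bear on killing of melanoma cells by T lymphocytes, and the control vector and 10% FBS libraries were the references of its comparisons. The labels do not give the vector, its delivery or selection, whether the cells were a clone or a pool, or the serum that control vector cells received. Each state was deposited in a table of its own set, so vector, culture and set coincide, and their parts in any difference between the states cannot be told apart. The labels also do not say whether replicates were separate cultures, so the spread between libraries may be technical.

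Melanoma cells range from a pigmented state, run by the transcription factors SOX10 and MITF, to dedifferentiated states in which receptor genes such as AXL, EGFR and NGFR are active. MHC class II molecules, normally the mark of immune cells that present antigen, are made by some melanomas without outside stimulation, through the transactivator CIITA. The transcription factor ATF4 switches on amino acid transport and synthesis when amino acids run short or proteins misfold.

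Of 20323 genes in the table with the control vector and 20332 in the table with 10% FBS, 20212 were joined by identifier. The total counts were 22463063, 20784978 and 23957043 with the control vector and 17178725, 16890187 and 15801033 in 10% FBS. A floor of 3 counts over a group corresponded to 0.0449 CPM (counts scaled to library size and to a common total per library) with the control vector and 0.0599 CPM in 10% FBS, and covers counting error only. Rank correlations were taken on FPKM (counts scaled by transcript length and library size, as deposited). They covered the 11094 genes at 1 FPKM or more in all 6 libraries, which leaves out genes low in a single state. Values were between 0.9915 and 0.9964 within a state and between 0.9436 and 0.9619 across states, over genes, which are not independent replicates. The first principal component held 81.9% of the variance and parted the states.

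The lineage markers matched a melanoma line that makes little pigment. SOX10 was at 358, 382 and 394 FPKM with the control vector and at 226, 244 and 208 FPKM in 10% FBS. Of 11 melanoma or melanocyte markers, 6 were at 1 FPKM or more in all 6 libraries, and the remaining 5 were below 1 FPKM in all of them: the pigment genes PMEL, MLANA, TYR, DCT and TYRP1. None of 8 leukocyte markers and none of 5 endothelial markers reached 1 FPKM throughout, and the T cell gene CD2 had no count in any library. The leukocyte markers summed to between 0.327 and 0.518 FPKM with the control vector and to between 0.449 and 0.571 FPKM in 10% FBS. Of 7 epithelial markers KRT8, KRT18 and KRT14, which encode keratins, were at 1 FPKM or more in all 6 libraries, whereas CDH1, EPCAM, TP63 and KRT5 were below 1 FPKM. The 7 fibroblast markers summed to between 3.662 and 6.803 FPKM with the control vector and to between 7.265 and 7.762 FPKM in 10% FBS. In bulk RNA, fewer cells of a type and less RNA per cell cannot be told apart, and this holds for every level given here.

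A transcriptome of 11094 genes was shared by both states at 1 FPKM or more in all 6 libraries, 54.9% of the joined genes. At 10 FPKM it held 6044 genes, at 100 FPKM 630 and at 1000 FPKM 46. The 46 most abundant comprised 9 genes encoded in mitochondrial DNA, 19 ribosomal protein genes, 3 glycolytic genes and 15 others. At 1 FPKM or more in all control vector libraries and below it in all 10% FBS libraries were 150 genes, and 160 genes showed the reverse. Genes without a single count in the 6 libraries numbered 2985.

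The order of the most abundant transcripts differed between the states, as FPKM levels. With the control vector the glycolytic enzyme gene GAPDH ranked above every named mitochondrial gene, at a mean of 7092 FPKM against 4444 FPKM in 10% FBS. MT-CO3, a subunit of cytochrome oxidase, averaged 5471 FPKM with the control vector and 9307 FPKM in 10% FBS, and MT-ATP6, a subunit of ATP synthase, 4633 FPKM with the control vector and 10897 FPKM in 10% FBS. The translation elongation factor gene EEF1A1 did not pass the test below, at 4060 FPKM with the control vector and 4228 FPKM in 10% FBS. Among genes that mark the cell type rather than its upkeep, the protease inhibitor gene SERPINE2 averaged 1944 FPKM with the control vector and 1769 FPKM in 10% FBS, and VIM, which encodes the mesenchymal filament vimentin, 1978 FPKM with the control vector and 1680 FPKM in 10% FBS.

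The comparison of control vector with 10% FBS asks how far the references of the series stand apart, with vector, culture and set confounded. Of 13315 genes tested, 8583 (64.5%) passed an adjusted p of 0.05 (edgeR quasi-likelihood, Benjamini-Hochberg), 4321 higher and 4262 lower with the control vector. Most differences were small. At least 2-fold differences numbered 1269 (9.53%), of which 616 were higher and 653 lower, while 7196 genes (54%) had a 95% interval wholly within 1.5-fold. The groups did not overlap in CPM for 9149 genes (68.7%). That share stands beside every gene below whose groups did not overlap, many of them named for their small p. For scale, at least 2-fold differences numbered 991 of 13267 genes (7.47%) for 0.1% against 10% FBS, 177 of 13383 (1.32%) for MKL1 against control vector and 1263 of 13534 (9.33%) for caMKL1 against control vector, comparisons that use the same control libraries and are only set side by side.

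Large differences were more frequent among the weakly expressed genes that were tested. The filter kept a gene that reached a minimum count in as many libraries as a group holds. Weak genes high in a single state were thus kept while evenly weak ones could be dropped, which can raise the share among weak genes. Divided by the mean over all 6 libraries, 252 of 679 genes (37.1%) below 1 CPM differed at least 2-fold, 638 of 2903 (22%) from 1 to 10 CPM, 322 of 7346 (4.38%) from 10 to 100 CPM and 57 of 2387 (2.39%) at 100 CPM or more. Among the 11094 shared genes, 477 (4.3%) differed at least 2-fold, and among the 6044 at 10 FPKM or more, 113 (1.87%) did. These classes require a level in all 6 libraries and so leave out genes that are low in a single state. Of the 46 genes at 1000 FPKM or more 1 differed at least 2-fold, MT-ATP6, and 34 lay within 1.5-fold.

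**Figure D1:**
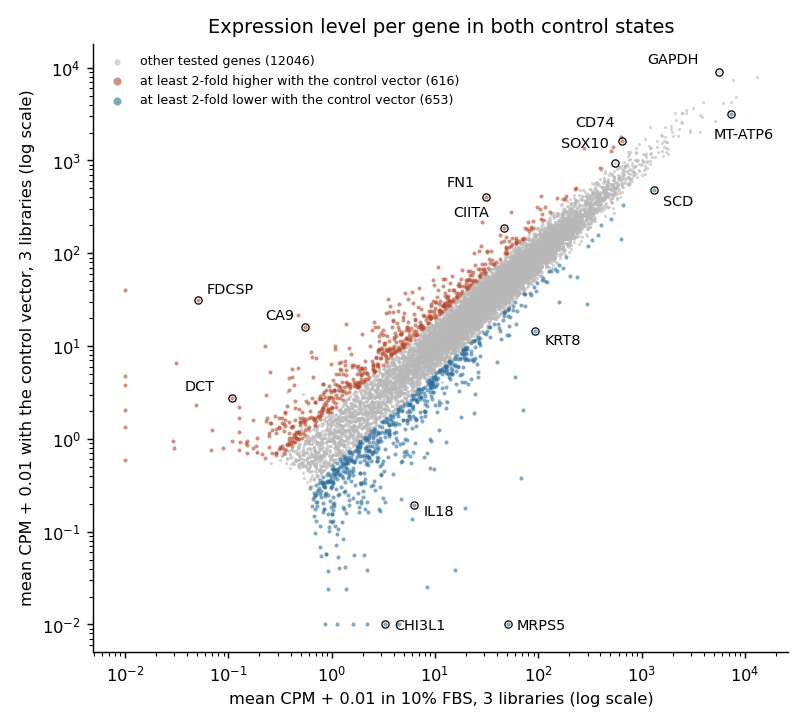
Mean CPM of each tested gene with the control vector (vertical axis) and in 10% FBS (horizontal axis), 3 libraries each, both on log scales with 0.01 added; coloured points mark the 616 genes at least 2-fold higher and the 653 at least 2-fold lower with the control vector. Abundant genes lie close to the diagonal, and the widest departures are among weak genes, with MRPS5 and CHI3L1 at 0 counts with the control vector.

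The differences followed the base composition of the transcripts. In the quintile of tested genes with the lowest GC content in their exons, the median log2 fold change (control vector over 10% FBS) was -0.24, with 10.55% of genes higher and 53.77% lower. In the quintile with the highest GC content it was 0.40, with 60.7% higher and 11.94% lower. The same quintiles had medians of 0.21 and -0.22 for 0.1% against 10% FBS, 0.11 and -0.10 for MKL1 against control vector, and 0.10 and -0.16 for caMKL1 against control vector, in comparisons that share libraries with this one. The part of base composition in the results below was not tested. Counts for the gene lists below are therefore given as fitted and also with per-library offsets for exonic length and GC content. As fitted 32.5% of all tested genes were higher and 32% lower, and with the offsets 33.01% and 31.02%. These shares stand beside every list count below.

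The GC-rich chromosome 19 had a median log2 fold change of 0.30 with 54.1% of its genes higher, and 0.12 with the offsets. The GC-poor chromosome 4 had a median of -0.16, and -0.02 with the offsets. A window of 50 neighbouring genes at the end of chromosome 19 (GRCh38 positions 57394183 to 58555124), picked after its values were seen, kept its median with the offsets. It was 0.47 without them and 0.46 with them, and without them 34 of its genes were higher and 1 lower. The window of largest median, on chromosome 16 (684622 to 2252300), went from 0.63 to 0.17 with the offsets.

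**Figure D2:**
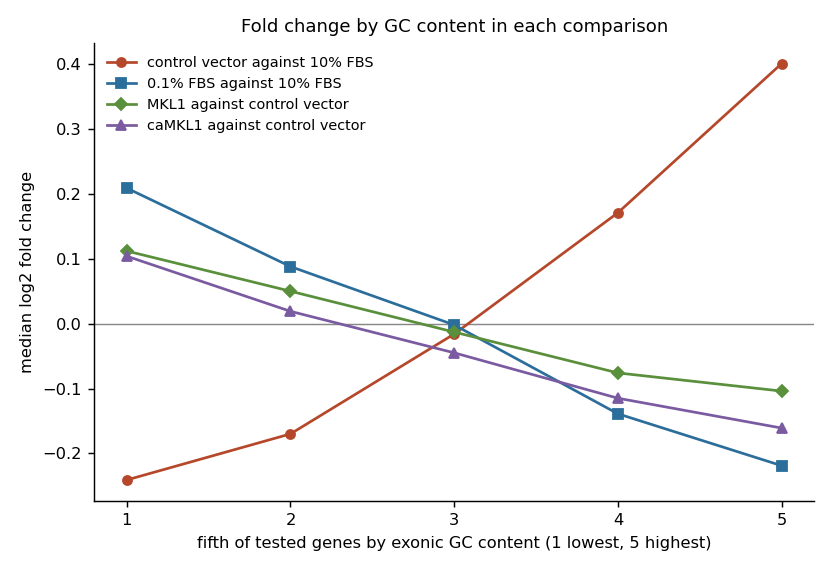
Median log2 fold change (vertical axis) in quintiles of the tested genes by exonic GC content (horizontal axis, lowest to highest) in 4 comparisons that share libraries. Control vector against 10% FBS climbs to 0.40 in the most GC-rich quintile, and the other comparisons slope the opposite way.

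Of the MHC class II list, 12 of 15 tested genes were higher with the control vector and 1 was lower (13 and 2 with the offsets), beside 32.5% and 32% of all tested genes. The median log2 fold change of the list was 1.25, and 1.07 with the offsets, beside -0.003 over all genes tested and 0.01 with the offsets. CIITA (ENSG00000179583, GRCh38 chromosome 16, 10866222 to 10943021), the transactivator on which class II transcription depends, was at 198, 187 and 176 CPM in control vector cells and at 49.3, 44.6 and 45.7 CPM in 10% FBS. All 3 control vector libraries lay far above the others, with log2 fold change 2.00 ± 0.0659 SE (adjusted p = 1.66e-12 by edgeR quasi-likelihood, Benjamini-Hochberg). CD74 (ENSG00000019582, chromosome 5, 150401637 to 150412929), the invariant chain that escorts class II molecules, was at 1618, 1605 and 1643 CPM in control vector cells and at 637, 691 and 611 CPM in 10% FBS (log2 fold change 1.33 ± 0.0527 SE). HLA-DRA (ENSG00000204287, chromosome 6, 32439842 to 32445046), the alpha chain of HLA-DR, was at 402, 398 and 393 CPM in control vector cells and at 153, 152 and 150 CPM in 10% FBS (log2 fold change 1.39 ± 0.0498 SE). For these 3 genes the groups did not overlap and each group was tight.

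The rest of the class II list spanned its working parts. Higher members had log2 fold changes between 0.22 and 2.35. The lower one, chosen here after its value was seen, was CTSS, a protease that trims the invariant chain, at 0.817, 1.35 and 1.37 CPM in control vector cells and 2.25, 2.84 and 3.28 CPM in 10% FBS. In FPKM the list summed to between 2027 and 2063 with the control vector and to between 873.2 and 928 in 10% FBS. The 8 leukocyte markers given above were near 0 in both states. A longer leukocyte list of 20 genes includes the lysosomal gene CD68. It summed to between 17.99 and 24.96 FPKM with the control vector and to between 35.2 and 39.82 FPKM in 10% FBS. Only 4 of its genes were tested, and all 4 were lower in control vector cells, with the offsets too. The filter can keep a weak gene through a single group, so this count does not weigh a direction. CIITA averaged 160 CPM with MKL1, 99.4 with caMKL1 and 16.8 in 0.1% FBS, so 10% FBS lay between the control vector and 0.1% FBS.

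Promoters of class II genes carry short elements, among them the X2 box and the Y box, on which RFX, CREB and NF-Y factors assemble with CIITA. The windows of CD74 and HLA-DMA are shown because they hold recognisable cores of both. HLA-DMA, a chaperone of peptide loading, was chosen after its values were seen. The sequences run from 250 bases before the gene start to 50 after it (RefSeq, GRCh38.p14, minus strand, 5′ to 3′), and capitals mark CCAAT (the Y box core) or its reverse ATTGG, and TGATGA (the X2 box core).
CD74, chr5:150412861-150413160: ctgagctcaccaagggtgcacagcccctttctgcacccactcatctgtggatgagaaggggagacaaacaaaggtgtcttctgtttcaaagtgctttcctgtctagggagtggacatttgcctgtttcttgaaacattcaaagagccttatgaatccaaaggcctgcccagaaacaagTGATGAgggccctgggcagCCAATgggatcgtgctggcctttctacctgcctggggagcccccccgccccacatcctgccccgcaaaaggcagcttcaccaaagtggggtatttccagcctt
HLA-DMA, chr6:32953048-32953347: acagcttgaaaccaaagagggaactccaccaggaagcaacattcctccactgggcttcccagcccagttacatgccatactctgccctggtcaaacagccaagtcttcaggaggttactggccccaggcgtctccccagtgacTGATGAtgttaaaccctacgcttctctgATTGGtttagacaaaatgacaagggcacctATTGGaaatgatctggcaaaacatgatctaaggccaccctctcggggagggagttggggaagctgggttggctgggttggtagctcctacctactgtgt

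CCAAT on either strand was found in the windows of 9 of 12 class II genes with a window and of 39.72% of all 27305 genes with one. TGATGA on either strand was found in 6 of the 12 and in 13.21% of all. A match of letters is a description and not evidence that a factor binds there. HLA-DMA was at 50.6, 44.5 and 48.1 CPM in control vector cells and at 26.7, 27.1 and 25.3 CPM in 10% FBS.

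Of 22 tested MHC class I genes 7 were higher and 8 lower with the control vector (6 and 11 with the offsets). As fitted these shares lay near the 32.5% and 32% of all tested genes. The median log2 fold change was -0.04, and -0.15 with the offsets. HLA-B (ENSG00000234745, chromosome 6, 31269491 to 31357188), a heavy chain, was at 109, 109 and 111 CPM in control vector cells and at 47.2, 48.9 and 50.8 CPM in 10% FBS (log2 fold change 1.17 ± 0.0591 SE). HLA-C, a heavy chain of the same locus, was at 119, 115 and 106 CPM in control vector cells and at 60.8, 68.4 and 62.5 CPM in 10% FBS. HLA-E, a ligand of inhibitory receptors on natural killer cells, also passed, at 0.70 ± 0.0658 SE on the log2 scale. Heavy chain genes are near copies and annotated as overlapping at HLA-B and HLA-C, so their split of reads is uncertain.

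The light chain gene went the other way from HLA-B, HLA-C and HLA-E. B2M (ENSG00000166710, chromosome 15, 44711487 to 44718877), which encodes the subunit every class I molecule needs, fell to 425, 400 and 396 CPM in control vector cells, against 605, 611 and 660 CPM in 10% FBS (log2 fold change -0.62 ± 0.0527 SE). All control vector libraries lay below all 10% FBS libraries, and the range over the alternatives was -0.65 to -0.38. CD274, which encodes the checkpoint ligand PD-L1, was at 2.18, 2.65 and 1.71 CPM in control vector cells and 2.37, 2.60 and 2.02 CPM in 10% FBS. These groups overlapped, and the gene did not pass. Among 14 tested checkpoint ligands 4 were higher and 6 lower (3 and 7 with the offsets), and CEACAM1, a ligand that restrains T and natural killer cells, was lower at 0.59, 0.433 and 0.582 CPM in control vector cells and 5.72, 5.68 and 6.30 CPM in 10% FBS.

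Interferon-stimulated genes were lower with the control vector. Of 41 tested, 28 were lower and 3 higher (26 and 3 with the offsets), with a median log2 fold change of -0.56, and -0.36 with the offsets. HERC6, a ligase of the interferon response, was at 4.99, 5.05 and 5.45 CPM in control vector cells and at 14.1, 11.7 and 13.9 CPM in 10% FBS. UBE2L6, which conjugates the ubiquitin-like protein ISG15, was at 38.1, 33.8 and 35.0 CPM in control vector cells and at 61.6, 67.1 and 62.3 CPM in 10% FBS (log2 fold change -0.84 ± 0.0696 SE). ISG15 itself was at 1.77, 2.21 and 2.12 CPM in control vector cells and 4.51, 5.03 and 4.98 CPM in 10% FBS, and IFIT1, an antiviral RNA-binding protein, at 6.04, 7.36 and 7.65 CPM in control vector cells and 10.8, 11.2 and 10.4 CPM in 10% FBS. In none of these 4 genes did the groups overlap. Of 18 tested genes of nucleic acid sensing and interferon signalling, 5 were higher and 8 lower (5 and 7 with the offsets). MAVS, the mitochondrial adaptor of RNA sensing, was higher (log2 fold change 0.46 ± 0.0579 SE), as was SOCS3, a cytokine signalling inhibitor, at 20.5, 18.2 and 21.1 CPM in control vector cells and 9.54, 8.16 and 8.89 CPM in 10% FBS.

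Secreted immune factors moved in both directions. Of 21 tested chemokine, cytokine and NF-kappaB genes 7 were higher and 11 lower with the control vector (6 and 10 with the offsets). Over all tested genes 32.5% were higher, a share near that of the list, and 32% lower. CXCL1, a neutrophil attractant, was at 16.8, 19.2 and 18.7 CPM in control vector cells and at 2.31, 2.60 and 2.84 CPM in 10% FBS (log2 fold change 2.82 ± 0.124 SE). IL24, a cytokine first found in differentiating melanoma cells, was at 14.0, 14.7 and 13.2 CPM in control vector cells and 2.78, 3.08 and 3.09 CPM in 10% FBS. IL18, an inflammatory cytokine that is released after cleavage, was lower, at 0.182, 0.24 and 0.125 CPM in control vector cells and 5.43, 5.97 and 7.50 CPM in 10% FBS. For these 3 genes the groups lay several-fold apart without overlap.

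Melanocyte lineage genes were higher with the control vector: 12 of 17 tested were higher and 3 lower, also with the offsets, with a median log2 fold change of 0.38 (0.40 with the offsets). SOX10 (ENSG00000100146, chromosome 22, 37970686 to 37987422) was at 903, 950 and 984 CPM in control vector cells and at 552, 600 and 496 CPM in 10% FBS (log2 fold change 0.78 ± 0.0632 SE, adjusted p = 4.49e-08 by edgeR quasi-likelihood, Benjamini-Hochberg). MITF (ENSG00000187098, chromosome 3, 69739435 to 69968337), the melanocyte master regulator, was at 34.5, 40.1 and 39.8 CPM in control vector cells and at 31.2, 28.0 and 28.6 CPM in 10% FBS (log2 fold change 0.38 ± 0.0796 SE). ERBB3, a receptor kinase under SOX10 control, was at 586, 578 and 556 CPM in control vector cells and 332, 316 and 336 CPM in 10% FBS. Among these regulators the groups did not overlap. The pigment genes stayed near their floor: PMEL, a melanosome scaffold, was at 0.636, 0.625 and 0.582 CPM in control vector cells and at 0.809, 0.592 and 0.757 CPM in 10% FBS and did not pass, and MLANA and TYR were too low to be tested. DCT, an enzyme of melanin synthesis, passed, but its level with the control vector was only 2.59, 2.84 and 2.75 CPM, against 0.0578, 0.237 and 0 CPM in 10% FBS.

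Genes of the dedifferentiated and invasive state did not move as a block. Of 27 tested, 14 were higher and 7 lower (14 and 8 with the offsets). NGFR (ENSG00000064300, chromosome 17, 49495293 to 49515017), a neural crest receptor, was at 77.2, 67.9 and 67.3 CPM in control vector cells and at 11.1, 12.1 and 9.08 CPM in 10% FBS (log2 fold change 2.71 ± 0.0966 SE, adjusted p = 4.62e-12 by edgeR quasi-likelihood, Benjamini-Hochberg). AXL, a receptor kinase tied to drug tolerance, was at 220, 192 and 188 CPM in control vector cells and at 132, 134 and 128 CPM in 10% FBS (log2 fold change 0.61 ± 0.0639 SE). EGFR (ENSG00000146648, chromosome 7, 55019021 to 55211628), the epidermal growth factor receptor, went the other way, at 12.6, 15.1 and 13.2 CPM in control vector cells and 33.1, 28.9 and 30.8 CPM in 10% FBS (log2 fold change -1.19 ± 0.0893 SE). HMGA2, a chromatin protein of mesenchymal tumours, was likewise lower, at 125, 146 and 148 CPM in control vector cells and at 318, 323 and 343 CPM in 10% FBS. SOX10 and NGFR were thus higher together, while AXL and EGFR parted. For MITF, AXL and EGFR the transcript length implied by the deposited FPKM differed by over 10% between the tables, so their CPM and FPKM ratios differ.

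**Figure D3:**
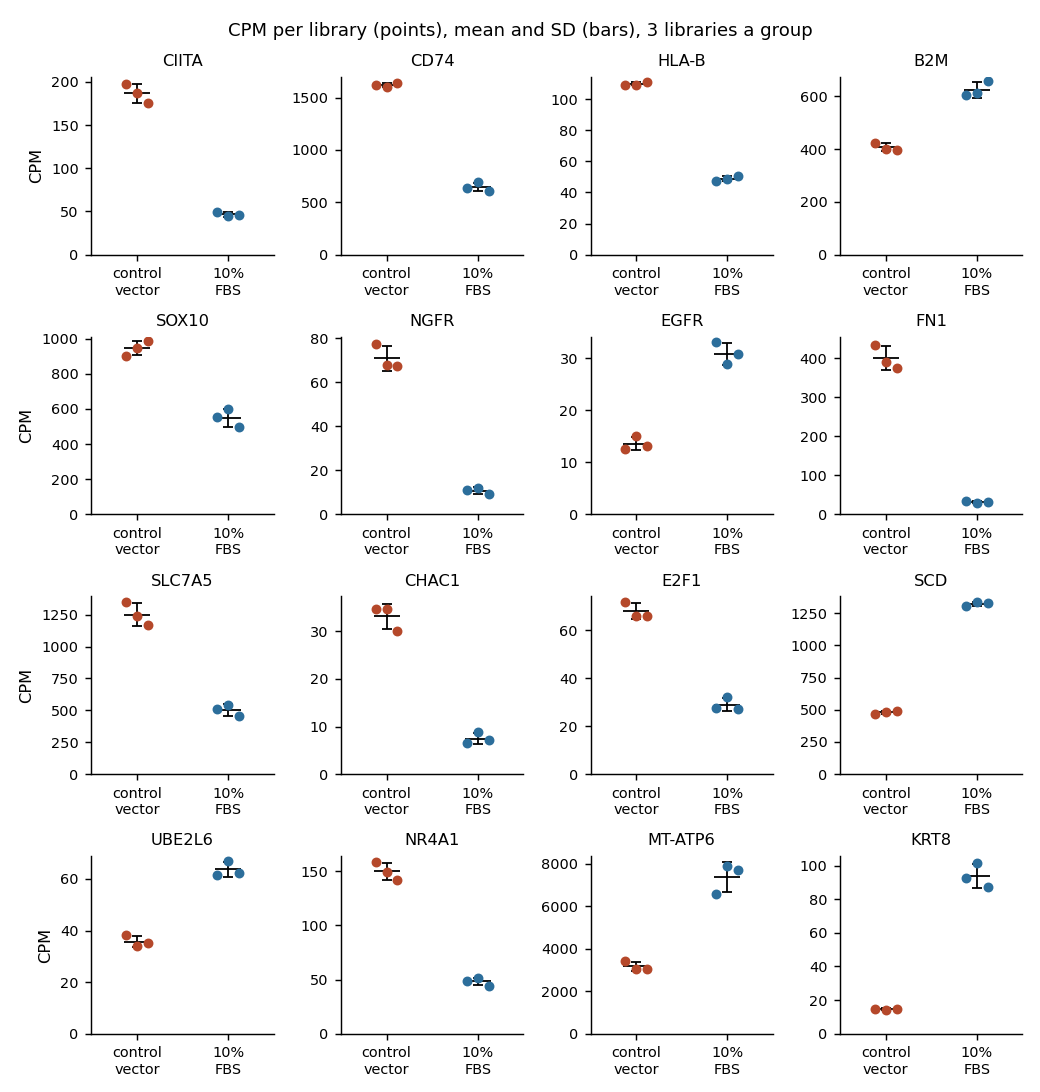
CPM of 16 genes in each library (points) with the mean and SD of 3 libraries (bars), control vector left and 10% FBS right in each panel. In no panel do the states overlap, as for 68.7% of all tested genes, and many panels show genes named for their small p. CIITA, CD74, HLA-B, SOX10, NGFR and FN1 are higher with the control vector, and B2M, EGFR, SCD, UBE2L6, MT-ATP6 and KRT8 are lower.

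Of 21 tested cancer-testis and other tumour antigens 12 were higher and 3 lower (11 and 2 with the offsets). Within 1.5-fold lay 16 of the 21, beside 54% of all tested genes and 73.71% of those at 10 FPKM or more in all 6 libraries. PRAME, a repressor of retinoic acid signalling, was at 188, 182 and 180 CPM in control vector cells and 213, 211 and 199 CPM in 10% FBS, and no longer passed without 10% FBS replicate 1 (adjusted p = 0.0566 by edgeR quasi-likelihood, Benjamini-Hochberg). MAGEA3, an X-linked antigen, was at 164, 154 and 160 CPM in control vector cells and 124, 135 and 136 CPM in 10% FBS. CSPG4, a surface proteoglycan of melanoma, stood out at 824, 779 and 744 CPM in control vector cells and 406, 442 and 374 CPM in 10% FBS. The telomerase gene TERT was at 7.26, 6.11 and 7.16 CPM in control vector cells and 1.91, 2.54 and 1.77 CPM in 10% FBS. Both were higher with the control vector in every library.

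Transcripts of matrix genes differed in both directions. Of 42 tested collagen and matrix genes 23 were higher and 13 lower (23 and 15 with the offsets), 12 and 4 of them by at least 2-fold, beside 4.63% and 4.9% of all tested genes. The median log2 fold change of the list was 0.35, and 0.14 with the offsets. FN1 (ENSG00000115414, chromosome 2, 215360440 to 215436172), fibronectin, was at 434.5, 389.9 and 375.04 CPM in control vector cells and at 33.6, 29.6 and 30.6 CPM in 10% FBS (log2 fold change 3.67 ± 0.0737 SE, adjusted p = 1.61e-14 by edgeR quasi-likelihood, Benjamini-Hochberg). The implied transcript length of FN1 also differed by over 10% between the tables. THBS1 (ENSG00000137801, chromosome 15, 39581079 to 39599466), thrombospondin 1, was at 1493, 1280 and 1267 CPM in control vector cells and 296, 256 and 275 CPM in 10% FBS. TIMP3, an inhibitor of matrix proteases, was at 1799, 1753 and 1772 CPM in control vector cells and 624, 622 and 632 CPM in 10% FBS. The fibril collagen gene COL1A1 was lower, at 1.82, 1.83 and 1.37 CPM in control vector cells and 6.36, 7.16 and 5.67 CPM in 10% FBS, as were LUM and POSTN, matrix genes that also mark fibroblasts. Of the fibroblast marker list 6 of 12 genes were tested, of which 3 were lower and 1 higher (4 and 1 with the offsets).

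Targets of the mechanosensitive coactivators YAP and TAZ were mostly higher: 17 of 26 tested were higher and 2 lower (17 and 3 with the offsets), with a median log2 fold change of 0.52 (0.39 with the offsets). AMOTL2, a feedback inhibitor of YAP, was at 123, 108 and 107 CPM in control vector cells and at 51.5, 49.7 and 43.6 CPM in 10% FBS. CCN2, a secreted matricellular protein, was at 49.7, 39.7 and 42.6 CPM in control vector cells and 19.6, 19.99 and 17.5 CPM in 10% FBS. CCN1, its close relative and an equally standard target, was at 43.3, 40.1 and 38.9 CPM in control vector cells and 38.2, 42.8 and 38.7 CPM in 10% FBS, and did not pass. The groups of CCN1 overlapped, and its 95% interval lay within 1.5-fold. NT5E, a surface enzyme that makes adenosine, was lower, at 56.5, 58.2 and 57.6 CPM in control vector cells and 111, 102 and 102 CPM in 10% FBS.

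MKL1 and its partner, the genes the series was built around, were themselves at higher CPM in every control vector library than in any 10% FBS library. MRTFA, the gene of MKL1, was at 26.4, 25.7 and 25.6 CPM in control vector cells and at 19.4, 22.1 and 17.9 CPM in 10% FBS (log2 fold change 0.39 ± 0.0853 SE), and did not pass with the offsets (adjusted p = 0.384 by edgeR quasi-likelihood, Benjamini-Hochberg). SRF, the transcription factor that MKL1 activates, was at 70.0, 63.9 and 61.6 CPM in control vector cells and at 43.3, 41.2 and 38.3 CPM in 10% FBS. Their cytoskeletal targets split, 15 higher and 12 lower of 36 tested (8 and 15 with the offsets), beside 32.5% and 32% of all tested genes. The median log2 fold change of 0.08 turned to -0.07 with the offsets. FLNA, which encodes the actin crosslinker filamin A, was at 2535, 2263 and 2140 CPM in control vector cells and 1208, 1313 and 1091 CPM in 10% FBS. VCL, vinculin of focal adhesions, was lower, at 123, 124 and 122 CPM in control vector cells and 199, 191 and 189 CPM in 10% FBS, and MYL12A, a myosin light chain, was lower too.

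Immediate early genes, the first to answer growth signals, were higher in 18 of 27 tested cases and lower in 5 (14 and 4 with the offsets), with a median log2 fold change of 0.43 (0.26 with the offsets). NR4A1, an orphan nuclear receptor, was at 158, 149 and 142 CPM in control vector cells and at 48.97, 51.3 and 44.5 CPM in 10% FBS. NR4A2, its relative, was at 15.6, 13.7 and 15.4 CPM in control vector cells and 4.57, 4.38 and 4.54 CPM in 10% FBS. FOS, a subunit of the AP-1 factor, was at 6.31, 6.01 and 5.20 CPM in control vector cells and 5.15, 5.38 and 4.67 CPM in 10% FBS, groups that overlapped, and did not pass. EGR1, a zinc finger factor of the same class, was lower at 20.2, 20.6 and 18.3 CPM in control vector cells and 39.0, 39.9 and 36.3 CPM in 10% FBS. Outputs of the ERK kinases did not lean to a side, 9 higher and 9 lower of 23 (10 and 10 with the offsets). Within them SPRY4, an inhibitor of receptor signalling, was higher (log2 fold change 0.75 ± 0.0495 SE) and the ERK phosphatase gene DUSP6 lower (-0.33 ± 0.0496 SE). BRAF was lower at 39.7, 43.4 and 44.1 CPM in control vector cells and 54.5, 52.3 and 57.3 CPM in 10% FBS.

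On the ATF4 list 27 of 30 tested genes were higher with the control vector and none was lower, with a median log2 fold change of 0.69. With the offsets 26 were higher and 1 lower, and the median was 0.47. CHAC1 (ENSG00000128965, chromosome 15, 40952962 to 40956519), a glutathione-degrading enzyme and ATF4 target, was at 34.7, 34.8 and 30.1 CPM in control vector cells and at 6.48, 8.87 and 7.06 CPM in 10% FBS (log2 fold change 2.15 ± 0.11 SE). SLC7A5, the main importer of large neutral amino acids, was at 1349, 1240 and 1166 CPM in control vector cells and 513, 540 and 453 CPM in 10% FBS. SESN2, which restrains mTORC1 when leucine is short, was at 44.4, 44.4 and 43.6 CPM in control vector cells and 17.8, 17.6 and 15.3 CPM in 10% FBS. ATF4 itself, added after its values were seen, was at 422, 398 and 404 CPM in control vector cells and 292, 303 and 297 CPM in 10% FBS. The groups of these 4 genes did not overlap. Of 26 genes of the unfolded protein response and heat shock 13 were lower and 4 higher (11 and 6 with the offsets), and 22 lay within 1.5-fold. The endoplasmic reticulum chaperone gene HSP90B1 was at 1059, 1144 and 1155 CPM in control vector cells and at 1579, 1600 and 1702 CPM in 10% FBS.

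The CHAC1 promoter window is shown because CHAC1 was the ATF4 list member with the largest difference and holds the composite element of C/EBP and ATF factors, TGATGNAA (N is any base), here as its reverse TTGCATCA in capitals (RefSeq, GRCh38.p14, plus strand, 5′ to 3′).
CHAC1, chr15:40953221-40953520: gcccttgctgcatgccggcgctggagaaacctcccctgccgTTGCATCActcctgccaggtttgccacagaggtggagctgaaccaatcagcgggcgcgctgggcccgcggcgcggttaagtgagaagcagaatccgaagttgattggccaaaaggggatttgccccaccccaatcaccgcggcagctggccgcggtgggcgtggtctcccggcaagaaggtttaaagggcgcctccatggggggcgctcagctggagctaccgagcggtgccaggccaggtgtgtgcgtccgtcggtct
On either strand the element was found in the windows of 8 of 26 tested ATF4 list genes with a window and of 4.457% of all genes with one.

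Of 36 tested genes of glycolysis and hypoxia 20 were higher and 8 lower (18 and 11 with the offsets), beside 32.5% and 32% of all tested genes, with a median log2 fold change of 0.21 (0.15 with the offsets). SLC2A1, the main glucose importer, was at 244, 228 and 223 CPM in control vector cells and at 133, 133 and 122 CPM in 10% FBS. PFKFB3, which speeds glycolysis, was at 143, 136 and 148 CPM in control vector cells and 78.7, 73.3 and 79.7 CPM in 10% FBS. CA9 (ENSG00000107159, chromosome 9, 35673856 to 35681159), a carbonic anhydrase induced by hypoxia, was at 17.3, 15.8 and 15.2 CPM in control vector cells and 0.52, 0.651 and 0.441 CPM in 10% FBS (log2 fold change 4.88 ± 0.171 SE). Among 21 tested FOXO and quiescence genes 11 were higher and 5 lower (13 and 5 with the offsets). TXNIP, a brake on glucose uptake, was at 28.3, 28.1 and 30.6 CPM in control vector cells and at 6.48, 5.74 and 6.30 CPM in 10% FBS. IRS2, an adaptor of the insulin receptor, was at 282, 317 and 300 CPM in control vector cells and 113, 99.3 and 97.8 CPM in 10% FBS. An importer of glucose and a brake on its uptake were higher in the same libraries.

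Most DNA replication genes were higher with the control vector. Of 38 replication and S phase genes 31 were higher and 1 lower (35 and 1 with the offsets), with a median log2 fold change of 0.38 (0.41 with the offsets). E2F1 (ENSG00000101412, chromosome 20, 33675683 to 33686404), the factor that opens S phase, was at 71.8, 66.0 and 65.9 CPM in control vector cells and at 27.7, 32.0 and 27.2 CPM in 10% FBS. TYMS, which makes thymidylate, was at 257, 251 and 245 CPM in control vector cells and 146, 158 and 152 CPM in 10% FBS. Of 34 mitosis genes 9 were higher and 11 lower, 30 lay within 1.5-fold, and with the offsets the count became 19 higher and 5 lower. MKI67, the Ki-67 gene, was at 918, 914 and 864 CPM in control vector cells and 718, 712 and 701 CPM in 10% FBS. The cell cycle brake CDKN1A, which encodes p21, was higher in the same libraries, at 188, 184 and 179 CPM in control vector cells and 97.0, 96.7 and 91.8 CPM in 10% FBS.

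CDKN2A, which encodes p16, was near the limit of detection at 1.09, 1.44 and 1.16 CPM in control vector cells and 0.983, 0.71 and 0.441 CPM in 10% FBS, and its call (adjusted p = 0.0436 by edgeR quasi-likelihood, Benjamini-Hochberg) was lost without any of 4 libraries in turn, control vector 2 or 3 or 10% FBS 2 or 3. The growth regulators MYC and CCND1 parted. MYC was at 25.6, 25.4 and 23.05 CPM in control vector cells and 52.9, 52.0 and 46.8 CPM in 10% FBS, and CCND1, cyclin D1, at 425, 456 and 464 CPM in control vector cells and 343, 334 and 337 CPM in 10% FBS.

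Transcripts of lipid synthesis genes were mostly lower with the control vector. Of 31 tested genes of cholesterol synthesis and uptake 18 were lower and 1 higher (19 and 3 with the offsets), and of 20 genes of fatty acid synthesis and desaturation 14 were lower and 3 higher (17 and 2 with the offsets), with medians of -0.22 and -0.41 on the log2 scale (-0.29 and -0.31 with the offsets). SCD (ENSG00000099194, chromosome 10, 100347124 to 100364834), the desaturase that makes oleate, was at 467, 485 and 489 CPM in control vector cells and at 1309, 1335 and 1327 CPM in 10% FBS (log2 fold change -1.46 ± 0.047 SE, adjusted p = 1.41e-12 by edgeR quasi-likelihood, Benjamini-Hochberg). FADS1, a desaturase of polyunsaturated fatty acids, was at 149, 145 and 151 CPM in control vector cells and 231, 240 and 237 CPM in 10% FBS. HMGCS1, which feeds the mevalonate pathway, was at 32.6, 32.6 and 33.9 CPM in control vector cells and 55.8, 51.9 and 56.7 CPM in 10% FBS. FDFT1, which commits the pathway to sterols, was at 98.3, 89.8 and 90.2 CPM in control vector cells and 161, 167 and 162 CPM in 10% FBS. In 0.1% FBS HMGCS1 averaged 778 CPM and SCD 3024 CPM, so control vector cells lay below 10% FBS cells for both genes while starved cells lay above.

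Transcripts of mitochondrial DNA were all lower with the control vector, 13 of 13, with a median log2 fold change of -0.87, and -0.46 with the offsets. They took 3.457%, 3.2% and 3.285% of the counts with the control vector and 5.53%, 6.094% and 5.806% in 10% FBS, without overlap (exact permutation test, two-sided, p = 0.1, the smallest that 3 against 3 libraries allow). MT-ATP6 was at 3431, 3034 and 3054 CPM in control vector cells and 6585, 7901 and 7694 CPM in 10% FBS, and MT-CO1, the catalytic subunit of cytochrome oxidase, at 8453, 7563 and 7922 CPM in control vector cells and 12553, 13842 and 12777 CPM in 10% FBS. Nuclear genes of the respiratory chain were lower in 24 and higher in 8 of 45 cases (20 and 6 with the offsets). UQCRB, a subunit of complex III, was at 83.0, 94.6 and 92.9 CPM in control vector cells and 180, 178 and 202 CPM in 10% FBS. Ribosomal protein genes took 5.223% ± 0.125 of the counts with the control vector and 5.33% ± 0.131 in 10% FBS (SD, n = 3 each, exact permutation p = 0.2), and 69 of 79 lay within 1.5-fold.

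**Figure D4:**
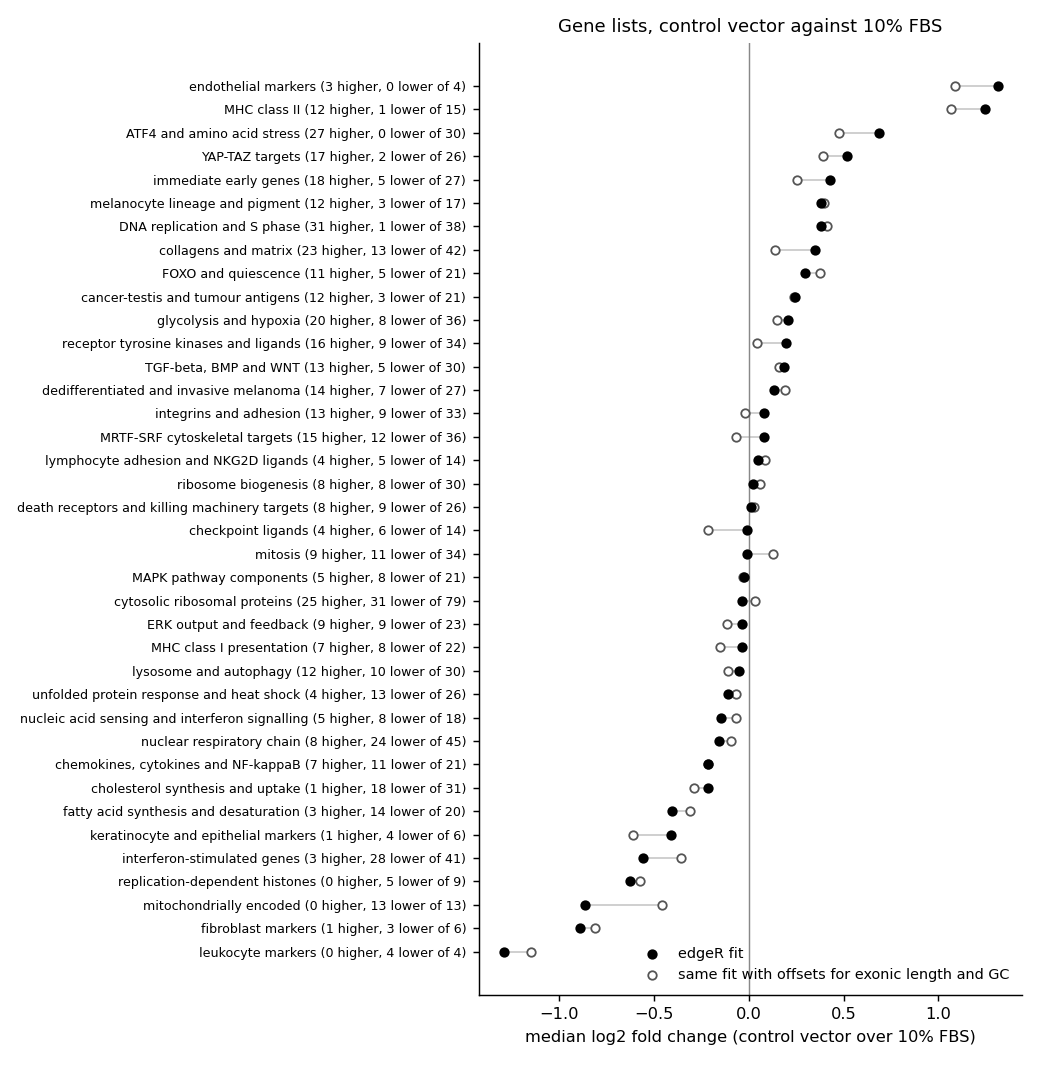
Median log2 fold change (control vector over 10% FBS) of the tested members of 38 gene lists as fitted (filled) and with offsets for exonic length and GC content (open); each label gives the members higher, lower and tested. MHC class II and ATF4 lists lie to the right under both fits, and interferon, lipid and mitochondrially encoded lists to the left. The outermost medians as fitted, 1.31 for endothelial and -1.30 for leukocyte markers, rest on 4 tested genes each.

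Of 34 tested receptor tyrosine kinases and ligands 16 were higher and 9 lower, 73.5% called in all beside 64.5% of all genes, and with the offsets 14 were higher and 11 lower at a median log2 fold change of 0.04. Of 30 genes of TGF-beta, BMP and WNT signalling 13 were higher and 5 lower, 60% called in all, and with the offsets 13 and 8. Neither share stood far from that of all genes. FST, follistatin, which traps activins, was at 216, 216 and 227 CPM in control vector cells and at 26.2, 27.5 and 32.3 CPM in 10% FBS (log2 fold change 2.94 ± 0.0744 SE). LEF1, a transcription factor of the WNT pathway, was at 72.8, 78.3 and 77.6 CPM in control vector cells and 35.3, 38.3 and 35.1 CPM in 10% FBS. KDR, the receptor of VEGF, was at 6.49, 5.19 and 5.62 CPM in control vector cells and 0.405, 0.473 and 0.504 CPM in 10% FBS, and ROBO4, a guidance receptor of vessels, was higher as well. VEGFC, a lymphatic growth factor, was lower, at 5.67, 4.23 and 4.99 CPM in control vector cells and 19.0, 17.6 and 18.6 CPM in 10% FBS. Only 4 of the 10 genes of the endothelial list were tested, and 3 of these were higher, also with the offsets, KDR among them. At its level in 10% FBS, KDR could pass the filter only through the control vector libraries, so this count does not weigh a direction. The defining markers PECAM1 and CDH5 were below 1 FPKM in all 6 libraries.

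Epithelial genes were mostly lower, 4 of 6 tested against 1 higher (4 and 2 with the offsets). KRT8, a simple epithelial keratin, was at 14.8, 14.1 and 14.9 CPM in control vector cells and at 92.7, 101 and 87.1 CPM in 10% FBS, and its partner KRT18 at 221, 213 and 216 CPM in control vector cells and 305, 332 and 296 CPM in 10% FBS. DSP, a desmosomal plaque protein, was at 19.7, 22.03 and 21.3 CPM in control vector cells and 51.7, 50.9 and 48.8 CPM in 10% FBS. ITGB4, an integrin of hemidesmosomes, was at 4.22, 3.61 and 3.87 CPM in control vector cells and 21.04, 22.2 and 18.8 CPM in 10% FBS. For KRT8, KRT18, DSP and ITGB4 every control vector library lay below every 10% FBS library. The keratin gene KRT14 was higher, at 4.63, 4.91 and 3.98 FPKM in control vector cells and 1.78, 2.28 and 1.28 FPKM in 10% FBS.

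Among the 12 largest rises, FDCSP, a secreted peptide of follicular dendritic cells, was at 31.2, 30.1 and 33.7 CPM in control vector cells, against 0, 0.0592 and 0.063 CPM in 10% FBS. Its ratio was 794.9-fold, with a counting interval of 219.8 to 6568. LHX8, a homeobox factor, had 435 counts with the control vector and 1 in 10% FBS (325.8-fold higher, interval 58.16 to 12900). FAT3, a giant cadherin, was at 22.6, 21.4 and 21.3 CPM in control vector cells and 0.463, 0.414 and 0.504 CPM in 10% FBS. CT45A9, a cancer-testis gene, TAC1, a neuropeptide precursor, SGCD, a sarcoglycan, and the adhesion gene NCAM1 completed the group with CA9 and DCT, given above, and CT45A7, FAM187A and AMIGO3.

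Among the 12 largest falls, PLXDC2, a plexin-domain membrane protein, had 2 counts with the control vector and 785 in 10% FBS (524.1-fold lower, interval 144.6 to 4335). UTS2, which encodes the vasoactive peptide urotensin 2, was at 0.0454, 0.0962 and 0.374 CPM in control vector cells and 19.8, 19.99 and 19.2 CPM in 10% FBS. FOXP1, a forkhead factor, had 2 counts with the control vector and 110 in 10% FBS (73.44-fold lower, interval 19.85 to 614). It shares 2539 exonic bases with AC097634.4 on the same strand, and these intervals cover counting error only. CAMK2B, a neuronal kinase subunit, had 3 counts with the control vector and 103 in 10% FBS, and SAGSIN1 had 1 with the control vector and 415 in 10% FBS. PLXDC2 averaged 0.0808 CPM with MKL1, 0.0948 with caMKL1 and 27.8 in 0.1% FBS, and FOXP1 0.077, 0.277 and 2.75 CPM. UTS2, SAGSIN1 and CAMK2B were likewise low with MKL1 and caMKL1 and higher in 0.1% FBS. The low levels were thus shared by all cells of the overexpression set, in which vector, culture and set remain confounded. The falls of HNRNPA1L3 and MYZAP passed in each alternative that could be run for them, which leaves out those on implied length. MYZAP shares 1671 exonic bases with GCOM1 on the same strand, which no alternative addressed. It averaged 0.379 CPM with MKL1, 0.528 with caMKL1 and 1.72 in 0.1% FBS. MKKS, a symbol given to more than 1 identifier, rested on control vector libraries at 0, 1.44 and 0 CPM. Its fall did not pass in DESeq2 (adjusted p = 0.106). IL18, MRPS5, SIK1 and CHI3L1 complete the group.

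Some genes had no counts at all in a state. MRPS5, a mitochondrial ribosomal protein gene, had 0 counts with the control vector and was at 51.6, 49.7 and 49.8 CPM in 10% FBS, so it was at least 1123-fold lower. It also had 0 counts with MKL1 and caMKL1 and averaged 42.0 CPM in 0.1% FBS, so it was absent from all 9 libraries of one deposited set and present in all 6 of the other. The same held for IL23R, a cytokine receptor gene named after its values were seen (at least 35.3-fold lower), and in the other direction for CT45A7 (at least 80.1-fold higher) and AMIGO3, a neuronal adhesion gene (at least 34.4-fold higher). CT45A7 and CT45A9 are members of a gene family close together on the X chromosome, so the split of reads between them is uncertain. SIK1, a salt-inducible kinase (at least 99.5-fold lower), and CHI3L1, a secreted chitinase-like protein (at least 73.3-fold lower), had no counts with the control vector but some in another library group of the overexpression set. FAM187A was at least 63.8-fold higher, and overlaps CCDC103 on the same strand, as AMIGO3 does GMPPB and MRPS5 does ZNF514. The control vector table lists 111 identifiers that the 10% FBS table lacks, and that table lists 120 that the control vector table lacks. For 15 symbols of the control vector table and 21 of the 10% FBS table the other table has another identifier, so reads can be assigned differently in the 2 sets; how far this made up the absences was not tested.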

How the data were processed

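RNA was measured in 3 control vector and 3 10% FBS libraries of A375 cells. Per the labels' protocols, RNA was extracted with Trizol, selected with oligo(dT) and made into libraries with a NEBNext Ultra kit. The build GRCh38 and the tools RSEM, DESeq2, StringTie 1.3.1, HISAT2 2.2.4 and Bowtie2 2.2.8 are listed, without roles, in the submitters' processing notes. The counts are raw reads per gene as the authors deposited them, per the file headers, and the FPKM values are the authors' own, also named so in the file headers. The sources used here name neither the strand setting of the counting nor the annotation release, so overlapping genes on opposite strands cannot be told apart.

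The 2 tables were joined by gene identifier. Counts were tested with edgeR 4.0.16 (R 4.3.3; TMM scaling, filterByExpr, robust quasi-likelihood F test) on the 6 libraries, with Benjamini-Hochberg adjustment over all 13315 genes and a threshold of 0.05. SE is the log2 fold change over the root of F. Positive fold changes mean higher with the control vector. Library totals ran from 15801033 to 23957043 counts, and the biological coefficient of variation was 5.82%. DESeq2 1.42.0 was an alternative. In data simulated for this comparison (13298 genes, 200 changed), 97.01% of 2-fold changes were recovered and 6.796% of calls were false. The simulation used a single dispersion for all genes, few changed genes and no trend with GC content. Its rates therefore describe that setting and not these data. Coordinates, GC content and overlaps come from GENCODE, promoters from RefSeq. Shares of gene biotypes were planned and are not given, because the tables list nearly only protein-coding genes.

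Members, lists and the naming rule below were chosen with earlier results of these data known. Named were the 20 genes of highest mean log2 FPKM, the 12 largest rises and 12 largest falls (adjusted p under 0.05, mean of at least 1 CPM, groups not overlapping), up to 3 members of each list by smallest p, and a set of marker genes whatever their values, some of which are not reported here. Alternatives covered scaling, filters, offsets for length and GC content, each library left out and the replicate block.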

Additional observations from a re-analysis of the deposited data

How the results depend on the processing

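Calls numbered between 7371 and 9362 over all alternatives other than the restriction to genes of like implied length (6393), against 8583. At least 2-fold differences numbered 1269; a stricter filter left 703 of 12028 genes tested. Using offsets for the transcript length implied by FPKM gave 730, and keeping the 9549 genes of like implied length gave 521. Both of these were chosen after seeing the data, and both test fewer genes. DESeq2 gave 1362, no filter 1682, all 15 libraries 1455 and length and GC offsets 1155. Leaving out 1 library gave 7770 to 8541 calls and 1298 to 1406 at least 2-fold. The offsets for length and GC content called 8495 genes, but only 6548 of the 8583 calls were shared. Leaving out 1 library kept 7601 or more shared. The offsets also reversed RPS6 (log2 fold change 0.042), and 108 calls over all genes changed sign. The cause was not tested. ICAM1 and PPIA did not pass with those offsets. SERPINE2 did not pass without control vector 3 or without 10% FBS 2. The count of genes at FPKM of at least 1 in all 6 libraries was 11777 at a threshold of 0.5, 10144 at 2 and 11768 in FPKM rescaled to a common sum. With the replicate block 8665 genes were called; same-numbered libraries deviated with correlations of 0.0129, -0.0538 and 0.162, so the numbers are not taken as pairs. Depth limits what can be said of genes near the floor of 3 counts per group.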

Other observations

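Death receptor and killing machinery genes did not lean to a side, with 8 higher and 9 lower of 26 tested (9 and 9 with the offsets for length and GC content). As fitted these shares lay near the 32.5% and 32% of all tested genes. CASP8, the initiator caspase of death receptors, was at 31.1, 33.2 and 31.6 CPM in control vector cells and 46.5, 46.7 and 50.7 CPM in 10% FBS, without overlap. The death receptor gene FAS was at 14.3, 12.4 and 12.9 CPM in control vector cells and 13.2, 12.1 and 12.0 CPM in 10% FBS and did not pass, though with offsets for length and GC content it was higher (log2 fold change 0.34). ICAM1, a ligand of lymphocyte integrins, was at 86.6, 81.3 and 79.4 CPM in control vector cells and 69.0, 72.5 and 64.9 CPM in 10% FBS.

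Of 30 lysosome and autophagy genes 12 were higher and 10 lower, and with the offsets 8 were higher and 15 lower (median log2 fold change -0.05, and -0.11 with the offsets). NPC2, which carries cholesterol out of lysosomes, was at 37.2, 41.6 and 40.6 CPM in control vector cells and 71.1, 71.8 and 77.4 CPM in 10% FBS. ULK1, a kinase that starts autophagy, was higher, at 54.0, 52.1 and 48.1 CPM in control vector cells and 26.3, 30.5 and 24.1 CPM in 10% FBS. Ribosome biogenesis genes counted 8 higher and 8 lower of 30, and 12 higher and 7 lower with the offsets. Replication-dependent histone genes, whose RNAs mostly lack a poly(A) tail, were lower in 5 of 9 tested cases (4 with the offsets) and higher in none, in libraries selected by oligo(dT).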
